A study of Mus musculus with 36 samples.

Results

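Venous endothelial genes were followed through 5 RNA-seq experiments on mouse embryonic hearts. The group holds 4 genes, Nr2f2, Emcn, Vwf and Nt5e, chosen as a fixed list of venous markers and found by Ensembl identifier among the 14846 genes of the 5 expression tables. All 4 were measured in each of the 36 libraries. The deposited values are normalized read counts, and each mutant was compared with the wild type (WT) libraries of its own experiment.

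Whole embryonic hearts at E12.5 (days of embryonic development) came from Jag1flox;Nfatc1-Cre embryos (4 mutant and 4 WT libraries) and Dll4flox;Nfatc1-Cre embryos (2 mutant and 4 WT), with 4 embryos pooled per library. Ventricles at E15.5 came from Dll4flox;Cdh5-CreERT2 embryos given tamoxifen at E12.5 (3 mutant and 4 WT) and from Dll4GOF;Tie2-Cre embryos, which carry 1 copy of a Cre-activated Dll4 transgene (3 mutant and 4 WT), with 3 embryos per library. Ventricles at E16.5 came from Efnb2flox;Nfatc1-Cre embryos (4 mutant and 4 WT), 1 embryo per library. The floxed genes were homozygous in the mutants, and the labels describe the controls only as WT. Jag1 and Dll4 are ligands of the Notch receptors and Efnb2 encodes the arterial ligand EphrinB2. Nfatc1-Cre acts in the endocardium and, in patches, in the endothelium of the sinus venosus, the venous inflow chamber from which coronary vessels sprout. Cdh5-CreERT2 and Tie2-Cre act in endothelium generally, and the transgene came from 1 targeted line of embryonic stem cells. The study set aside libraries of Dll4flox;Nfatc1-Cre partly on their Dll4 level, so the 2 that remain were selected in part on the deleted gene.

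Veins and arteries differ in the genes their endothelium expresses, and venous identity is held by the nuclear receptor NR2F2 (COUP-TFII), which represses the Notch pathway in venous cells. Dll4 and Notch signalling support arterial identity. Coronary veins and capillaries inherit venous features from the sinus venosus, and NR2F2 is also made by atrial cardiomyocytes, endomucin by endocardium and capillaries, VWF by megakaryocytes, and CD73, the product of Nt5e, by mesenchymal cells. In bulk RNA a change in the number of cells of a type and a change in RNA per cell cannot be told apart.

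In the mouse genome (GRCm38), Nr2f2 (ENSMUSG00000030551) lies on the minus strand at chr7:70351944-70366735, Emcn (ENSMUSG00000054690) on the plus strand at chr3:137341067-137432185, Vwf (ENSMUSG00000001930) on the plus strand at chr6:125546774-125686679, and Nt5e (ENSMUSG00000032420) on the plus strand at chr9:88327197-88372092. RefSeq (GRCm38.p6) gave a promoter for 3 of the 4. That of Emcn is shown because Emcn holds the only call of the limma test between mutant and WT, and that of Nr2f2 because its WT levels differed most between stages. The Nt5e window falls in an untranslated exon of the GENCODE gene and is not shown. Each window is the 250 bases before the RefSeq start (Emcn chr3:137340828-137341077, plus strand, Nr2f2 chr7:70366747-70366996, minus strand), with the core letters of ETS-family sites, GGAA or its complement TTCC, in capitals.
Emcn: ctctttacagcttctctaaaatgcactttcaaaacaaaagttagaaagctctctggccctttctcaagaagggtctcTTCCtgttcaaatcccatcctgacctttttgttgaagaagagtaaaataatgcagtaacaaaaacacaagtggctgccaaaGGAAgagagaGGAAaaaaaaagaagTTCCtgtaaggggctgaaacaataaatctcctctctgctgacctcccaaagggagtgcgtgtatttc
Nr2f2: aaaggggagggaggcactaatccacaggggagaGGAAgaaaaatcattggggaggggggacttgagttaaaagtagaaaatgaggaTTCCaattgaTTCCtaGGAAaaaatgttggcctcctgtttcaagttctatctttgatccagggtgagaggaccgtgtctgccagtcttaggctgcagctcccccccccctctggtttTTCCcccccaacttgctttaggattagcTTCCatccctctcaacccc

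The Emcn window had 4 matches and the Nr2f2 window 6. At least 1 match is present in 93.4% of the 32851 promoter windows in the table, 4 or more in 33.4% and 6 or more in 8.69%. TGGGAA, core letters bound by the Notch effector RBPJ, was searched on both strands and overlaps GGAA. It had 0 matches in both windows and at least 1 in 21.6% of all windows. These matches describe letters and were not tested as binding sites.

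Depth ranged from 7827496 to 28464430 reads per library (median 15376245.5), recovered from the deposited values. Nt5e rested on the fewest reads, 74 to 257 per library, against 163 to 1464 for Nr2f2, 379 to 1779 for Emcn and 304 to 1980 for Vwf. The deleted gene was lower in all mutant than in all WT libraries of its experiment: Jag1 20.9 to 27.4 against 39.1 to 45.7, Dll4 1.29 and 1.53 against 13.2 to 17.8 at E12.5, Dll4 8.11 to 20.7 against 23.2 to 28.6 at E15.5, and Efnb2 44.4 to 48.4 against 55.1 to 80.6. Dll4 in Dll4GOF;Tie2-Cre ventricles was 38.5 to 42.7 against 31.7 to 35.2. Dll4 loss in the Dll4flox;Cdh5-CreERT2 ventricles was uneven, with 1 mutant library (replicate 3, 20.7) near the WT range.

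Across the 5 experiments, 1 of 20 comparisons of a venous gene was called, a rise of Emcn in Dll4flox;Cdh5-CreERT2 ventricles (limma on log2 of normalized count + 0.5, Benjamini-Hochberg over all genes of the table, called at adjusted p under 0.05). In Jag1flox;Nfatc1-Cre hearts limma called 0 of the 4, where 1.12% of 13982 genes rose and 0.637% fell. Of the 4, 1 (Nt5e) had an unadjusted p under 0.05, as had 3315 of the 13982 genes. DESeq2 called Nt5e, among 1108 genes that it called there, and edgeR and limma voom called 0 of the 4. In Dll4flox;Nfatc1-Cre hearts 0 were called against 1.31% of 14302 genes that rose and 0.86% that fell, and 0 by edgeR, DESeq2 or voom. An unadjusted p under 0.05 by limma was reached by 1 of the 4 (Vwf) and by 3056 of the 14302 genes.

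In Dll4flox;Cdh5-CreERT2 ventricles 1 of the 4 rose, against 0.943% of 13897 genes, and 0 fell, against 0.209%. Limma gave 2 of the 4 (Emcn and Nt5e) an unadjusted p under 0.05, as it did 1975 of the 13897 genes. The tools edgeR, DESeq2 and voom each called 1 of the 4. In Dll4GOF;Tie2-Cre ventricles limma called 0 of the 4, and of 13737 genes 0% rose and 0% fell. The overexpressed gene Dll4 was itself not called (log2 fold change 0.28, limma adjusted p = 0.354). Emcn and Nt5e had an unadjusted p under 0.05 there, as had 1280 of the 13737 genes. Again edgeR, DESeq2 and voom were run, and they called 0 of the 4. In Efnb2flox;Nfatc1-Cre ventricles 0 were called and the same 3 tools called 0, where 0.0296% of 13527 genes rose and 0% fell. The deleted gene Efnb2 was itself not called (log2 fold change -0.52, limma adjusted p = 0.297). There 0 of the 4 had an unadjusted p under 0.05, beside 858 of the 13527 genes. Without regard to a test, mutant and WT libraries did not overlap in 4 of the 20 comparisons. These were Nt5e in Jag1flox;Nfatc1-Cre (13.8% of all genes did not overlap there), Emcn and Nt5e in Dll4flox;Cdh5-CreERT2 (13%) and Nt5e in Dll4GOF;Tie2-Cre (8.95%), while 31.5% of genes did not overlap in Dll4flox;Nfatc1-Cre and 3.64% in Efnb2flox;Nfatc1-Cre, none of them venous genes.

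**Figure D1:**
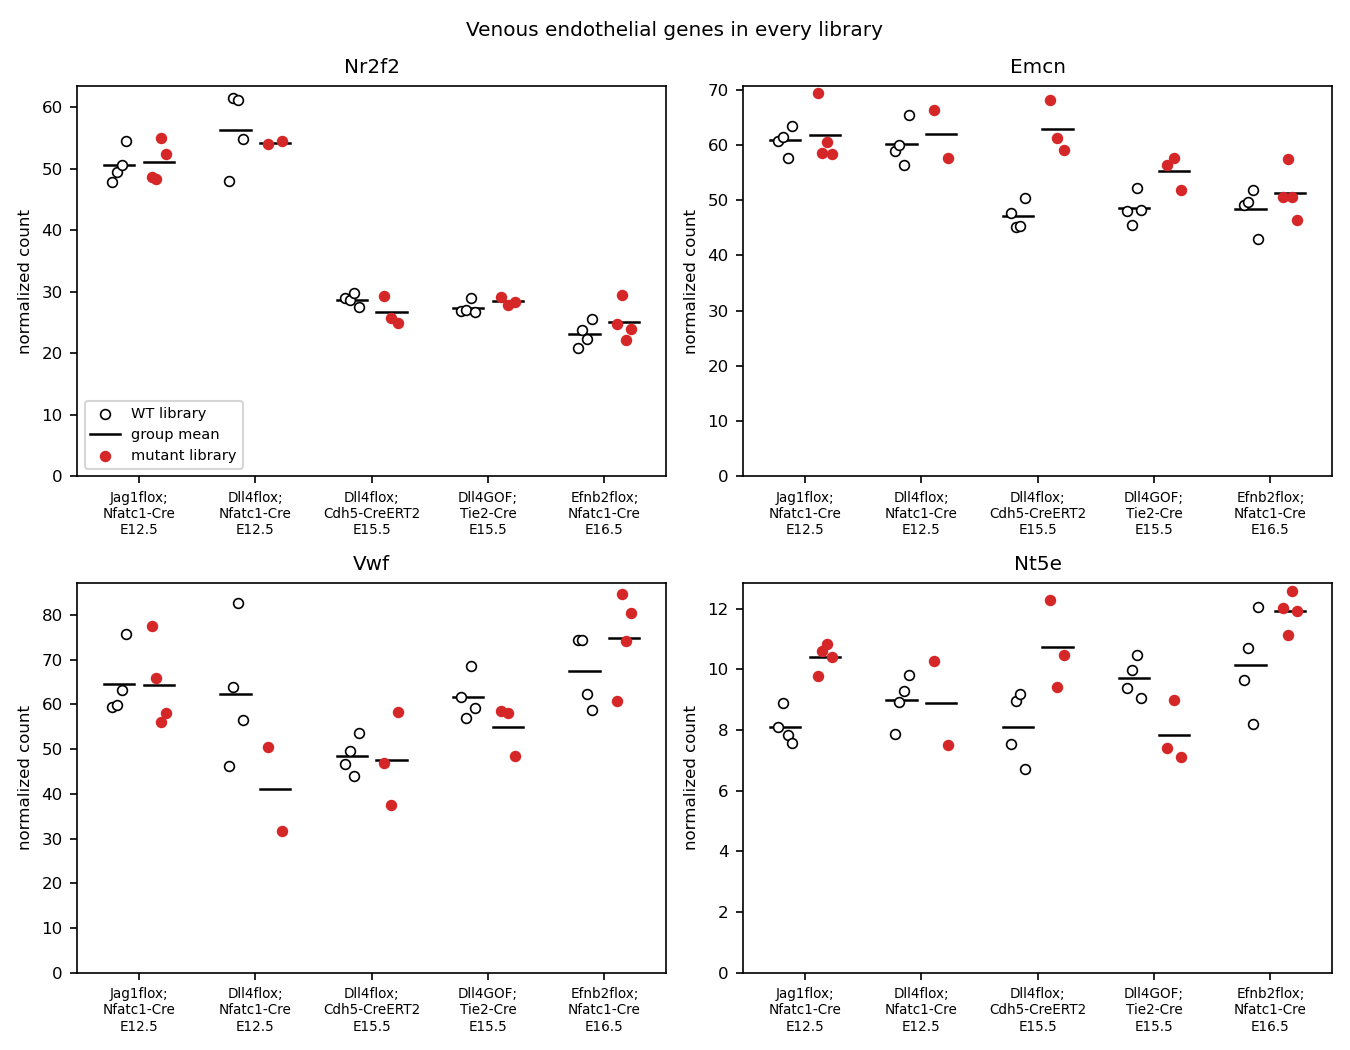
Normalized count (y axis, from 0) of Nr2f2, Emcn, Vwf and Nt5e in each of the 36 libraries by experiment (x axis), with open points for WT, filled points for mutants and bars for group means. Emcn in Dll4flox;Cdh5-CreERT2 stands at 59.1 to 68.1 in mutants against 45.1 to 50.4 in WT, and Nr2f2 is at 20.9 to 29.7 in all ventricle WT libraries against 47.9 to 61.5 in whole hearts.

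Nr2f2, the transcription factor of venous identity, was not called in any of the 5 experiments. Its normalized counts in Jag1flox;Nfatc1-Cre hearts were 48.7, 48.3, 55.0 and 52.5 against 47.9, 49.5, 50.7 and 54.6 in WT, a log2 fold change of 0.01 (95% interval -0.12 to 0.15). The mutant and WT libraries covered nearly the same range. In Dll4flox;Nfatc1-Cre hearts it was 54.0 and 54.5 against 48.0, 61.5, 61.2 and 54.9, so both mutants fell inside the WT range (log2 fold change -0.05, interval -0.28 to 0.18).

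In Dll4flox;Cdh5-CreERT2 ventricles Nr2f2 was 29.4, 25.8 and 24.9 against 29.1, 28.6, 29.7 and 27.6. One mutant lay in the WT range and the others below it, and the log2 fold change was -0.11 (SE 0.08, limma adjusted p = 0.605). The 10 genes of atrial and sinus venosus myocardium, 9 of them measured, summed to 1362 to 1569 in these mutants and 1383 to 1860 in WT. Of the 9, 1 had a positive log2 fold change and 0 were called, with a median of -0.29. Their mean log2 level was 5.23 to 5.24 in mutants and 5.35 to 5.60 in WT. The part of these genes in the Nr2f2 value was not tested. In Dll4GOF;Tie2-Cre ventricles Nr2f2 was 29.2, 27.9 and 28.3 against 26.9, 27.0, 28.9 and 26.7 (log2 fold change 0.06, interval -0.07 to 0.18). In Efnb2flox;Nfatc1-Cre ventricles it was 24.8, 29.4, 22.1 and 24.005 against 20.9, 23.7, 22.3 and 25.6 (log2 fold change 0.11, interval -0.10 to 0.32). In both experiments the groups overlapped.

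Among 10 regulators, relatives and partners of NR2F2, all measured in every table, 1 call was made in the 5 experiments. It was made in Jag1flox;Nfatc1-Cre hearts, where 0.637% of all 13982 genes fell and 1.12% rose. Nr2f1, its close relative COUP-TFI, fell in Jag1flox;Nfatc1-Cre hearts from 35.3 ± 2.46 (SD, n = 4) to 26.5 ± 3.404 (n = 4), a log2 fold change of -0.41 (SE 0.09, limma adjusted p = 0.0462). The list's median log2 fold change lay between -0.05 in Dll4flox;Cdh5-CreERT2 and 0.09 in Efnb2flox;Nfatc1-Cre, beside all-gene medians between -0.0011 and 0.0041 across the experiments.

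Emcn encodes endomucin, a sialomucin on the surface of venous, capillary and endocardial endothelium that limits leukocyte adhesion. At E12.5 its values in both mutants overlapped those of WT. In Jag1flox;Nfatc1-Cre hearts it was 69.3, 58.5, 60.5 and 58.4 against 60.7, 61.4, 57.6 and 63.5 (log2 fold change 0.02, interval -0.12 to 0.16). In Dll4flox;Nfatc1-Cre hearts it was 66.3 and 57.7 against 58.8, 59.9, 56.4 and 65.3 (log2 fold change 0.04, interval -0.14 to 0.22). One mutant library in each experiment was the highest of its table, and the rest lay within the WT range.

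Emcn rose in the E15.5 ventricles with Dll4 deleted. It was 68.1, 61.2 and 59.1 in Dll4flox;Cdh5-CreERT2 ventricles against 47.7, 45.1, 45.3 and 50.4 in WT. All 3 mutant libraries were above all 4 WT libraries, including the mutant that kept the most Dll4, which held 61.2. The means were 62.8 ± 4.74 (SD, n = 3) and 47.2 ± 2.48 (n = 4), a 32.7% higher level on the log2 fold change of 0.41 (SE 0.07, 95% interval 0.25 to 0.57, limma adjusted p = 0.0258), and 81 genes of the 13897 had a smaller p. The call was lost when WT replicate 1 (adjusted p = 0.0674), 2 (0.0971) or 3 (0.102) or mutant replicate 2 (0.179) was left out, with log2 fold changes of 0.35 to 0.45 over all single omissions. It was also lost with the replicate number as a block (0.0543) and without the mean-variance trend (0.101).

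The pan-endothelial list moved with Emcn in the same ventricles. Of 20 genes expressed by all endothelium, all measured, 18 had a positive log2 fold change, 5 rose and 0 fell, with a median of 0.27. Over all genes 49.8% were positive, 0.943% rose and 0.209% fell. Egfl7, a matrix protein secreted by endothelium, rose from 76.9 to 116.5, Icam2, an adhesion molecule, from 43.9 to 62.2, Esam, a junction protein, from 64.0 to 85.2, and Cd34, a sialomucin like endomucin, from 162.1 to 204.9 (limma adjusted p = 0.0157 to 0.0213). The summed level of the list was 2104 to 2450 in mutants and 1902 to 1965 in WT. Less the mean log2 level of the 20 genes, Emcn differed from WT by 0.15 on the log2 scale, with values of -0.62 to -0.39 in mutants and -0.67 to -0.53 in WT that overlapped.

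On that same relative scale the median of all 13897 genes was -0.26, since the list itself was higher in every mutant, and 42.9% of genes did not overlap between mutant and WT. Nr2f2 differed by -0.37, with mutants at -1.85 to -1.59 and WT at -1.39 to -1.24, which did not overlap. Vwf differed by -0.31 and overlapped WT at a single mutant library, and Nt5e differed by 0.12 and overlapped. Emcn and Nt5e were thus above the all-gene median and Nr2f2 and Vwf below it. These relative values are a description, with no test, and a lack of overlap on this scale is common. The 8 endocardial genes, a lining that also carries endomucin, summed to 225.6 to 253.9 in these mutants and 241.4 to 265.3 in WT, with 1 of 8 positive and 0 called. The part of the endothelial share in the Emcn value was not tested.

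**Figure D2:**
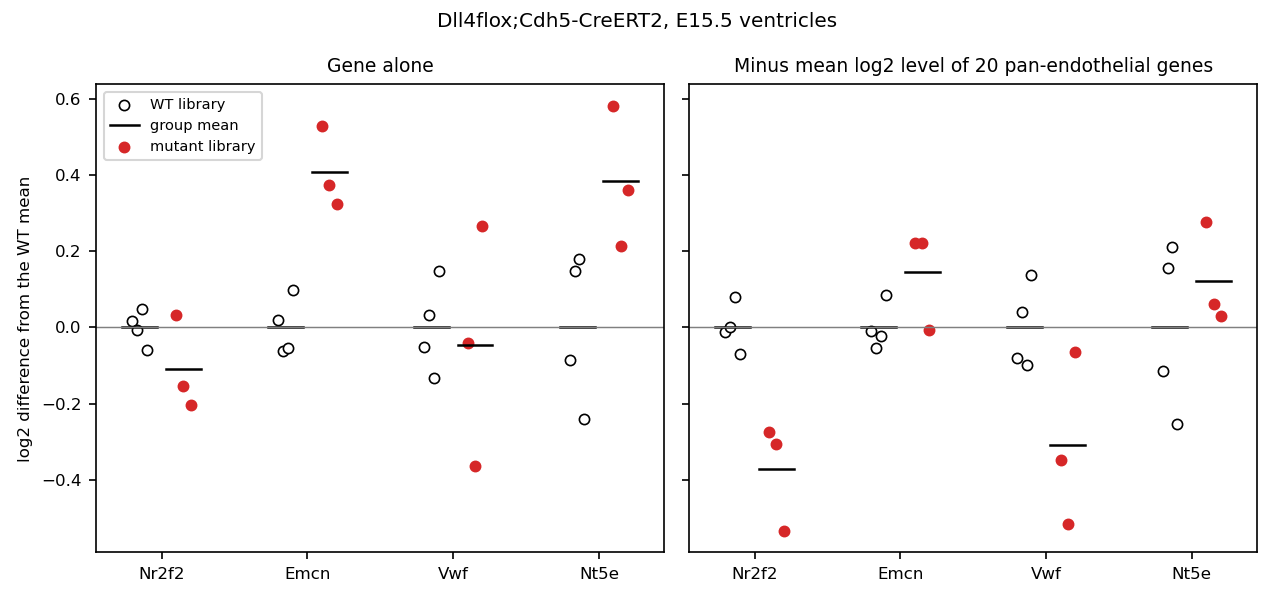
Log2 difference from the WT mean (y axis) for the 4 venous genes in Dll4flox;Cdh5-CreERT2 ventricles, for each gene alone (left) and after subtracting the mean log2 level of 20 pan-endothelial genes in the same library (right). Open points are WT libraries, filled points mutants and bars group means. The mean difference of Emcn is 0.41 on the left and 0.15 on the right, and that of Nr2f2 is -0.11 and -0.37.

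With Dll4 gain the Emcn difference was also positive, and it was not called. In Dll4GOF;Tie2-Cre ventricles Emcn was 56.3, 57.7 and 51.8 against 48.0, 45.5, 52.2 and 48.2. One mutant was inside the WT range and the others were above it, with a log2 fold change of 0.19 (SE 0.06, 95% interval 0.05 to 0.32, limma adjusted p = 0.414). The pan-endothelial list there had 9 of 20 genes positive and a median of -0.03. The 8 endocardial genes summed to 318.8 to 328.6 in mutants against 288.2 to 303.6 in WT. Of these 8, 5 were positive and 0 called, with log2 fold changes from -0.48 to 0.28. Their mean log2 levels overlapped, at 4.26 to 4.41 in mutants and 4.26 to 4.36 in WT. The part of endocardium in the Emcn value was not tested. Less the pan-endothelial mean, Emcn differed there by 0.23, with mutants at -0.54 to -0.40 and WT at -0.83 to -0.60, which did not overlap (9.46% of all genes did not on this scale, with a median of 0.04). In Efnb2flox;Nfatc1-Cre ventricles Emcn was 50.5, 57.4, 50.6 and 46.4 against 49.2, 49.6, 51.8 and 43.0, groups that overlapped (log2 fold change 0.08, interval -0.09 to 0.25).

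Vwf encodes von Willebrand factor, the adhesive glycoprotein that endothelium stores in Weibel-Palade bodies and that megakaryocytes load into platelets. It had the widest spread between libraries of one group, with a coefficient of variation of 32.4% in the 2 mutants and 24.7% in the 4 WT libraries of Dll4flox;Nfatc1-Cre. In those hearts Vwf was 50.5 and 31.7 in mutants against 46.2, 63.8, 82.7 and 56.6 in WT. One mutant was below all WT libraries and the other was inside their range, with a log2 fold change of -0.60 (SE 0.23, interval -1.13 to -0.07, limma adjusted p = 0.187). Without mutant replicate 2 it was -0.27 and without mutant replicate 1 it was -0.94 (limma adjusted p = 0.684 and 0.0901), where the lone mutant left is assumed to vary like the WT libraries.

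Of 9 platelet and megakaryocyte genes 8 were measured in the same hearts, 7 of which had a negative log2 fold change (median -1.10), and their summed level was 28.7 and 27.1 in the mutants against 36.2, 37.7, 89.0 and 41.4 in WT. The WT library with the highest sum, replicate 3, also had the highest Vwf. The list's 1 call in these hearts was a rise of Clec1b, the platelet receptor for podoplanin, from 4.15 to 11.3 (limma adjusted p = 0.0324). Itga2b, a platelet integrin subunit, was 8.62 in mutants and 22.1 in WT, and Pf4, platelet factor 4, was 3.42 and 7.55, neither of them called. The 8 measured genes of VWF receptors and partners had 0 calls and a median of -0.66. The part of platelet RNA in the Vwf value was not tested.

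Elsewhere Vwf overlapped between mutant and WT. It was 77.6, 66.0, 56.1 and 58.0 against 59.4, 60.0, 63.3 and 75.7 in Jag1flox;Nfatc1-Cre (log2 fold change -0.01, interval -0.24 to 0.22), where 7 of 8 measured platelet genes were also negative (median -0.43) and 1, Pf4, fell from 8.65 to 5.35 (limma adjusted p = 0.039). In Dll4flox;Cdh5-CreERT2 ventricles Vwf was 47.0, 37.4 and 58.3 against 46.7, 49.5, 44.1 and 53.7 (log2 fold change -0.05, interval -0.32 to 0.23). The 3 mutants spanned more than the 4 WT libraries in both directions. In Dll4GOF;Tie2-Cre ventricles it was 58.5, 58.1 and 48.5 against 61.7, 56.9, 68.6 and 59.2 (log2 fold change -0.16, interval -0.34 to 0.01), and in Efnb2flox;Nfatc1-Cre it was 60.7, 84.6, 74.1 and 80.4 against 74.5, 74.5, 62.4 and 58.7 (0.15, interval -0.08 to 0.37).

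Nt5e encodes CD73, the surface enzyme that releases adenosine from AMP. Its mutant and WT libraries did not overlap in 3 experiments, and limma called it in none of the 5. Of all genes, 13.8% did not overlap in Jag1flox;Nfatc1-Cre, 13% in Dll4flox;Cdh5-CreERT2 and 8.95% in Dll4GOF;Tie2-Cre. In Jag1flox;Nfatc1-Cre hearts it was 9.78, 10.6, 10.8 and 10.4 against 8.11, 8.89, 7.84 and 7.59. All 4 mutants exceeded all 4 WT libraries. Depth was 12914259 to 18581508 reads in these mutants and 18182839 to 28464430 in WT, and its part was not tested. The mutant group was 26.9% higher on a log2 fold change of 0.34 (SE 0.09, 95% interval 0.16 to 0.53). Limma gave an unadjusted p of 0.0019 and an adjusted p of 0.0608. DESeq2 gave 0.0458 and library quality weights 0.0363, and edgeR 0.0623, over a range of 0.0363 to 0.16 for all alternatives. Mesenchymal and fibroblast genes, which mark another source of CD73, summed to 3327 to 4131 in these mutants against 2989 to 3370 in WT, with 6 of 7 positive and 0 called. The 9 epicardial genes were all positive, with 2 rises and a median of 0.30, and summed to 447.6 to 494.2 against 343.6 to 453.8. The 4 measured lymphatic genes were also positive, with 0 called, and summed to 122.9 to 149.4 against 105.2 to 118.1. The part of these cell types in the Nt5e value was not tested.

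In Dll4flox;Nfatc1-Cre hearts Nt5e was 10.3 and 7.51, on either side of 7.86, 8.94, 9.29 and 9.82 in WT (log2 fold change -0.02, interval -0.36 to 0.31). At E15.5 the experiments differed in sign. Nt5e was 12.3, 9.41 and 10.5 in Dll4flox;Cdh5-CreERT2 against 7.54, 8.96, 9.17 and 6.73, all mutants above all WT libraries (log2 fold change 0.39, SE 0.14, limma adjusted p = 0.239). The mutant that kept the most Dll4 had the lowest of the 3 values. In Dll4GOF;Tie2-Cre it was 7.40, 8.98 and 7.10 against 9.40, 9.96, 10.5 and 9.04, all mutants below all WT libraries (log2 fold change -0.30, SE 0.11, limma adjusted p = 0.454).

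The WT levels of Nt5e in these 2 tables were 6.73 to 9.17 and 9.04 to 10.5, ranges that overlapped at their ends, and the Dll4GOF;Tie2-Cre mutants lay within the range of the other WT group. Mesenchymal and fibroblast genes summed to 4249 to 4548 in Dll4flox;Cdh5-CreERT2 mutants against 4413 to 4776 in WT, and to 4740 to 5059 in Dll4GOF;Tie2-Cre mutants against 5029 to 6181, and their part was not tested. In Efnb2flox;Nfatc1-Cre ventricles Nt5e was 12.02, 11.1, 12.6 and 11.9 against 9.63, 10.7, 8.21 and 12.05. The mutants were in the upper part of the WT range or just above it (log2 fold change 0.23, interval -0.03 to 0.49, limma adjusted p = 0.818).

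Of 8 genes for other steps of adenosine supply and sensing, 6 were measured in each table. Adora2a, an adenosine receptor, rose in both Dll4 deletions, from 10.4 ± 1.65 (SD, n = 4) to 21.2 ± 5.56 (n = 2) at E12.5 (log2 fold change 0.98, limma adjusted p = 0.0388) and from 14.3 ± 1.57 (n = 4) to 25.4 ± 5.79 (n = 3) at E15.5 (0.79, limma adjusted p = 0.0279). Slc29a1, the nucleoside transporter ENT1, rose in Dll4flox;Nfatc1-Cre hearts from 44.1 to 64.6 (0.54, limma adjusted p = 0.017). No call on this list was made in Jag1flox;Nfatc1-Cre, Dll4GOF;Tie2-Cre or Efnb2flox;Nfatc1-Cre.

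**Figure D3:**
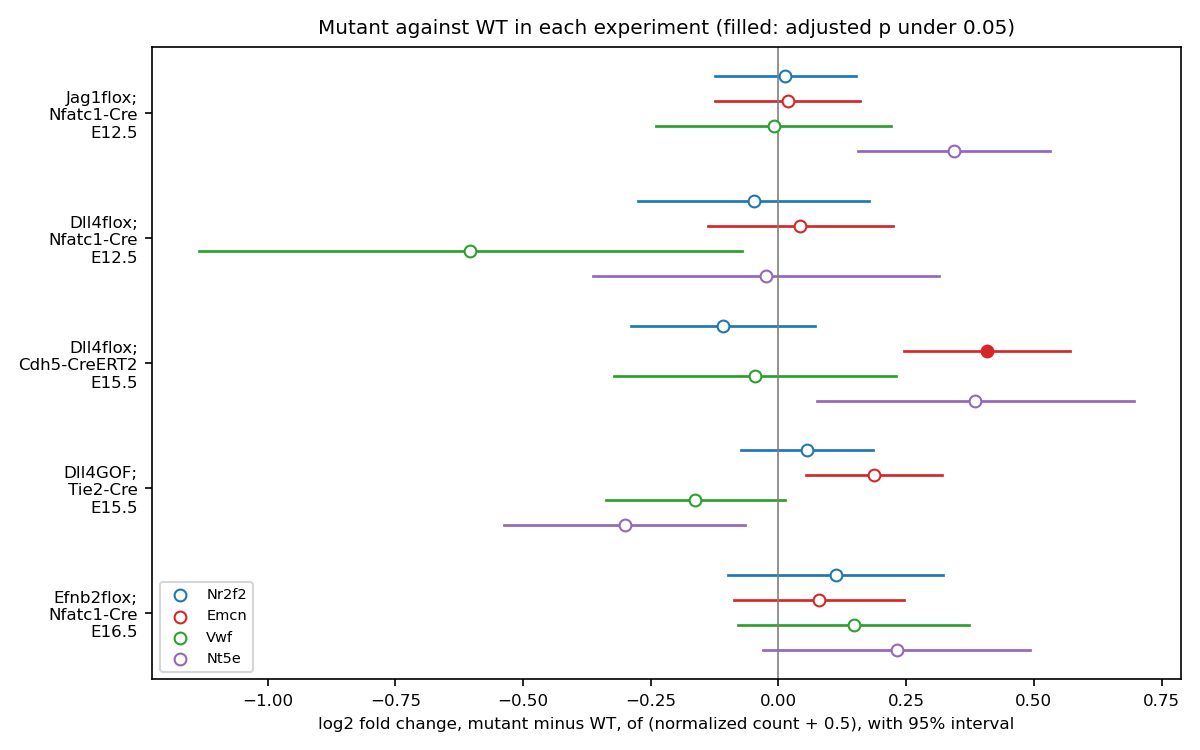
Log2 fold change of mutant against WT (x axis, on normalized count + 0.5) with its 95% interval for Nr2f2, Emcn, Vwf and Nt5e in the 5 experiments (rows), filled where the adjusted p was under 0.05. Emcn in Dll4flox;Cdh5-CreERT2 (0.41) is the filled point, and Nt5e lies at 0.39 there and at -0.30 in Dll4GOF;Tie2-Cre.

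Some other venous genes rose beside Emcn in the E15.5 ventricles with Dll4 deleted, as did some pan-endothelial genes. Of 11 further markers 8 were measured in Dll4flox;Cdh5-CreERT2 ventricles, 3 rose and 0 fell, with a median log2 fold change of 0.27. The pan-endothelial list had the same median, and 0.943% of all genes rose. Flt4, the receptor VEGFR3, rose from 42.0 ± 1.01 (SD, n = 4) to 67.0 ± 12.2 (n = 3), Aplnr, the apelin receptor of vessels that sprout from the sinus venosus, from 57.6 ± 3.97 to 78.9 ± 7.21, and Prcp, a lysosomal carboxypeptidase, from 36.8 ± 2.35 to 51.4 ± 5.50 (limma adjusted p = 0.0179, 0.0258 and 0.0276). The arterial list of 18 had 0 calls and a median of -0.13, with Dll4 itself at -1.12 (limma adjusted p = 0.0507). The other venous list had 0 calls in the 4 remaining experiments, with medians of 0.12 in Jag1flox;Nfatc1-Cre, 0.43 in Dll4flox;Nfatc1-Cre, -0.10 in Dll4GOF;Tie2-Cre and 0.04 in Efnb2flox;Nfatc1-Cre, and 7 to 9 genes measured.

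**Figure D4:**
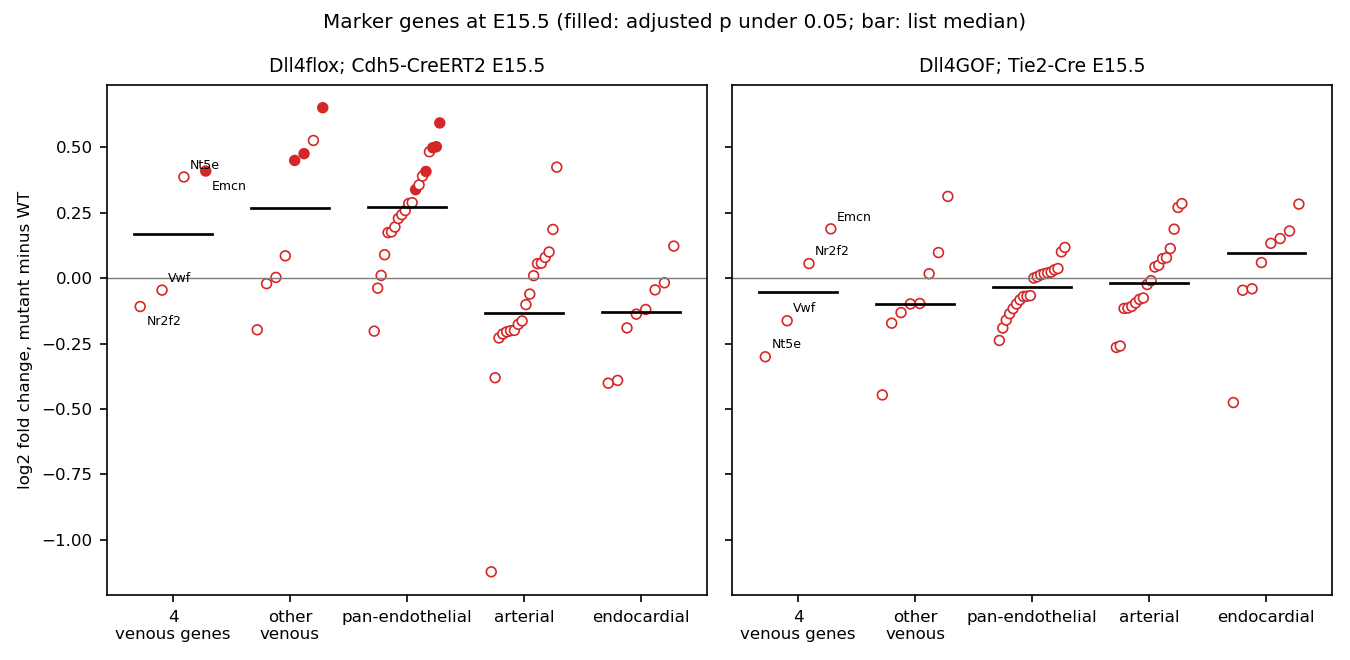
Log2 fold change of mutant against WT (y axis) for each gene of 5 endothelial lists (x axis) in Dll4flox;Cdh5-CreERT2 (left) and Dll4GOF;Tie2-Cre ventricles (right), with bars at list medians and filled points where the adjusted p was under 0.05. Of the 20 pan-endothelial genes on the left 18 are positive and the median of all 20 is 0.27, and on the right the median is -0.03 with 0 filled points.

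Whether 2 genotypes differed in their effect was tested as a difference of the mutant-minus-WT changes, for the 4 venous genes in 3 contrasts that share some libraries. Dll4 loss minus Jag1 loss at E12.5 gave 0 calls among the 4, where 0.00725% of 13795 genes were called higher and 0.00725% lower. Vwf (-0.59) and Nt5e (-0.37, interval -0.71 to -0.03) had an unadjusted p under 0.05 by limma, as had 2275 of the 13795 genes. Dll4 gain minus Dll4 loss at E15.5 gave 0 calls, where 0.0737% of 13562 genes were higher and 0.251% lower. Nt5e had the largest difference of the 4, -0.69 (SE 0.18, interval -1.06 to -0.31, limma adjusted p = 0.112), and was called without Dll4flox;Cdh5-CreERT2 mutant replicate 3 (-0.77, adjusted p = 0.0319). Emcn differed by -0.22 (interval -0.42 to -0.02, limma adjusted p = 0.358), both effects being positive. The gain and loss experiments also differ in Cre driver and in tamoxifen, which cannot be told apart from the Dll4 change.

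Late minus early Dll4 loss compared the Dll4 deletions sampled at E15.5 and at E12.5. It gave 0 calls among the 4, where 0.126% of 13536 genes were higher and 0.163% lower. Emcn differed by 0.37 (SE 0.11, interval 0.13 to 0.60, limma adjusted p = 0.179), so a rise at E15.5 and its lack at E12.5 were not told apart by this test after adjustment. Nr2f2 differed by -0.06 (interval -0.33 to 0.21). These deletions also differ in driver, tissue and pool size, which cannot be told apart from age. The 3 difference contrasts were run with limma alone.

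Levels in WT libraries differed most for Nr2f2. It was 53.5 ± 5.49 (SD, n = 8 libraries, 47.9 to 61.5) in E12.5 hearts, 28.1 ± 1.15 (n = 8, 26.7 to 29.7) in E15.5 ventricles and 23.1 ± 2.02 (n = 4, 20.9 to 25.6) in E16.5 ventricles. In the deposited values none of the 3 ranges overlapped, and the mean at E15.5 was 47.5% below that at E12.5. With the 5 tables normalized together the ratio of those means was 0.555 against 0.525, and the ranges at E15.5 (26.8 to 30.4) and E16.5 (21.9 to 26.98) overlapped. Atrial and sinus venosus myocardium genes summed to 3744 to 5196 in the E12.5 hearts, which include atria, 1383 to 1860 at E15.5 and 1039 to 1207 at E16.5 (9 or 10 genes). Less the pan-endothelial mean, the log2 level of Nr2f2 was -0.15 ± 0.17, -1.42 ± 0.12 and -1.63 ± 0.13. The part of atrial tissue was not tested, and stage, tissue and RNA kit cannot be told apart here.

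Emcn was 60.5 ± 2.96 (n = 8, 56.4 to 65.3), 47.8 ± 2.55 (n = 8, 45.1 to 52.2) and 48.4 ± 3.76 (n = 4, 43.0 to 51.8) at the same stages. In the deposited values the hearts were above the ventricles without overlap, by 0.34 on the log2 scale at E15.5, and the ventricle groups overlapped. With the 5 tables normalized together the gap to E15.5 was 0.26, and the E12.5 range (53.7 to 62.1) overlapped that of E16.5 (45.4 to 54.7). The endocardial list summed to 381.9 to 479.2, 241.4 to 303.6 and 202.9 to 241.7 (8, 8 and 7 genes).

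Vwf was 63.5 ± 11.3, 55.0 ± 8.23 and 67.5 ± 8.18, and Nt5e was 8.54 ± 0.80, 8.91 ± 1.23 and 10.2 ± 1.63, with ranges that overlapped between all stages. Within E15.5, the WT libraries of Dll4flox;Cdh5-CreERT2 held 44.1 to 53.7 Vwf and those of Dll4GOF;Tie2-Cre 56.9 to 68.6. These sets share age and tissue and did not overlap.

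**Figure D5:**
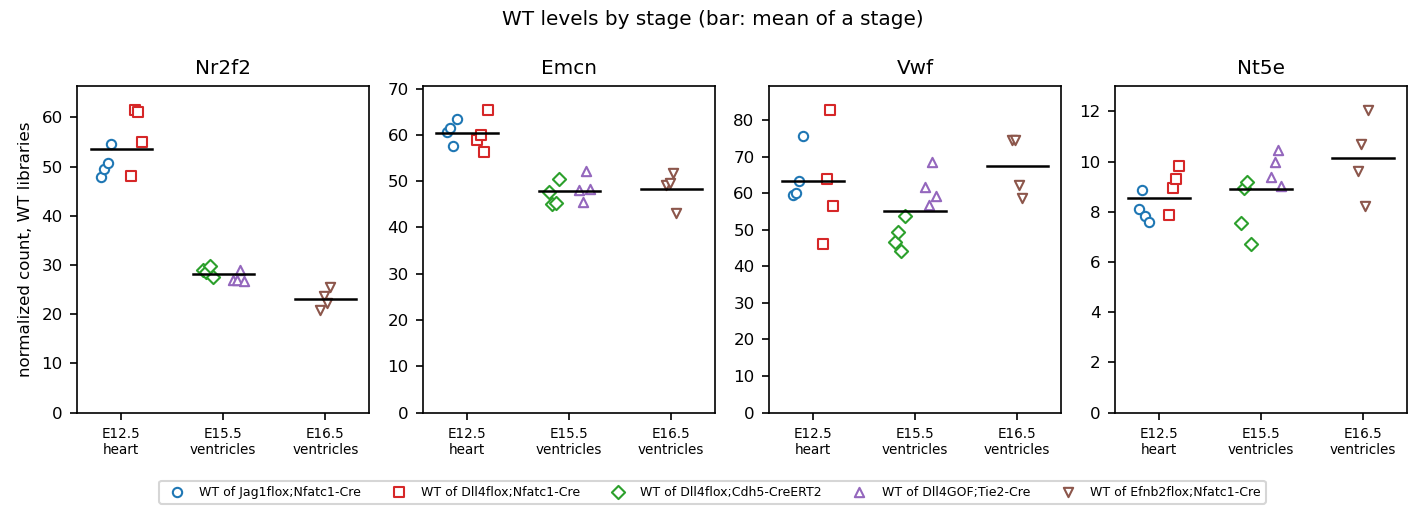
Normalized count (y axis, from 0) of the 4 venous genes in the 20 WT libraries by stage and tissue (x axis), with a marker for the experiment each WT group belongs to and bars for stage means. The stage means of Nr2f2 are 53.5, 28.1 and 23.1 and those of Emcn 60.5, 47.8 and 48.4, and Vwf and Nt5e overlap between stages.

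Per kilobase of annotated exon, Emcn was the highest of the 4 in all 5 WT groups, at 8.72 to 11.2 normalized counts per kilobase, and Nt5e the lowest, at 0.942 to 1.18. Nr2f2 stood above Vwf in the E12.5 groups, at 5.87 ± 0.33 against 4.02 ± 0.47 and 6.54 ± 0.73 against 3.88 ± 0.96 (n = 4 each). Below it stood Nr2f2 in the WT of Dll4GOF;Tie2-Cre (3.18 ± 0.12 against 3.84 ± 0.32) and of Efnb2flox;Nfatc1-Cre (2.68 ± 0.23 against 4.20 ± 0.51). In the WT of Dll4flox;Cdh5-CreERT2 Nr2f2 was 3.33 ± 0.10 and Vwf 3.02 ± 0.26, and their library ranges overlapped (3.20 to 3.45 and 2.74 to 3.34).

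The 4 genes did not vary together. Over the 36 libraries, each set against its own WT mean, Pearson's r between pairs of the 4 ranged from -0.10 (Nr2f2 with Emcn) to 0.27 (Nr2f2 with Vwf), and Emcn with Nt5e gave 0.18. The libraries share tables and WT means, so these are descriptions. Among 12418 protein-coding genes, the 5 most like Emcn were Nts, Arsa, P3h2, Tmem189 and Fbl (r = 0.73 to 0.71). Those most like Nr2f2 were Enox1, Sbk3, Trem2, Kbtbd3 and Zfp958 (0.62 to 0.55), for Vwf they were Polr1a, Abtb2, Fn1, Usp38 and Cachd1 (0.72 to 0.67), and for Nt5e Uso1, Magi1, Dmxl2, Mapt and Shank2 (0.76 to 0.67).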

How the data were processed

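The authors trimmed reads with Cutadapt 1.6, quantified them with RSEM 1.2.3 on GRCm38 according to the submitters' processing notes, normalized each experiment separately and deposited normalized counts per Ensembl gene (a coverage-like signal, taken here as such). In all 36 deposited columns every value came out as a whole read number plus 0.5, times 1 factor per library, within 0.01, and these whole counts served for depth, edgeR, DESeq2 and voom. Symbols came from a GENCODE annotation. The main test was limma 3.58.1 (R 4.3.3) with a mean-variance trend on log2(normalized count + 0.5), two-sided, mutant against the experiment's own WT, without further filter, with Benjamini-Hochberg adjustment over all genes of the table. Differences of effects were fitted on the genes of both tables. Intervals are 95%.

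The fits were first tested on simulated data. Of 2-fold changes 96% to 100% were recovered over the 5 experiments, and of 1.5-fold changes 71% to 89%. Unchanged genes made up 3.83% to 10.7% of the calls. Dll4flox;Nfatc1-Cre, with 2 mutant libraries, had the 71% and the 10.7%. Changes smaller than 1.5-fold were not simulated. Alternatives used edgeR 4.0.16, DESeq2 1.42.0, other scalings, weights, filters, a replicate block and single omissions, and voom was added after seeing the data. Replicates are libraries, which the labels do not tie to separate litters, so p-values measure only the spread between these samples. Reads carry no molecular identifiers, so counting intervals would cover counting error only. The members and gene lists were chosen with earlier results of these data known. Named genes are the 4 venous genes, the targeted genes, called genes of the fixed lists (at most 4 per list and experiment) and the 5 nearest genes by correlation. Itga2b, Pf4 in the Dll4flox;Nfatc1-Cre hearts and Dll4 beside the arterial list are named outside that rule, after their values were seen.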

Additional observations from a re-analysis of the deposited data

Results flagged for a closer look

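Nt5e lay on opposite sides of WT in the E15.5 experiments, and the gap between the 2 changes was large by an unadjusted test. All 3 Dll4flox;Cdh5-CreERT2 mutant libraries were above their 4 WT libraries and all 3 Dll4GOF;Tie2-Cre mutant libraries were below theirs. Of all genes, 13% and 8.95% did not overlap in these experiments, in either direction. The change with Dll4 gain less that with Dll4 loss was -0.69 on the log2 scale (limma unadjusted p = 0.0013, adjusted p = 0.112, 0 of the 4 venous genes called in this contrast). An unadjusted p under 0.05 was reached by 1612 of the 13562 genes in this contrast. Relative to the mean of the pan-endothelial list the changes were 0.12 and -0.26, with overlap in both experiments, beside all-gene medians of -0.26 and 0.04. The experiments also differ in Cre driver and in tamoxifen, which cannot be told apart from Dll4 gain or loss.

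Nr2f2 was 28.9 in 1 WT library of the Dll4GOF;Tie2-Cre experiment, against 26.7 to 27.0 in the other 3, a gap large for the range of its group. It was 1 of 28 gene and group combinations of 4 libraries examined this way, and chance alone gives about 1 in 20.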

How the results depend on the processing

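The count of venous genes called changed under these settings. In Dll4flox;Cdh5-CreERT2 it went from 1 to 0 without the mean-variance trend, with the replicate block, with an absolute log2 fold change over 0.5 required and at adjusted p under 0.01, and single omissions gave 0 to 1. In Jag1flox;Nfatc1-Cre it went from 0 to 1 (Nt5e) with library quality weights and with DESeq2. For Dll4 gain minus loss it went from 0 to 1 (Nt5e, -0.80) with quality weights, and single omissions gave 0 to 1. The E15.5 minus E12.5 WT difference of Emcn moved from -0.34 to -0.26 with the 5 tables normalized together. No called change reversed its sign. The causes were not tested, except that the last 2 calling rules are stricter by construction. Emcn in Dll4flox;Cdh5-CreERT2 kept its call under edgeR, DESeq2, voom, robust variances, quality weights, both rescalings, the low-value filter and a pseudocount of 1 (adjusted p = 0.00114 to 0.0307).

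Same-numbered mutant and WT libraries had correlated deviations in 6 of 15 pairs (over 0.1, range -0.13 to 0.23), and 5 of 15 mutants were nearest to their own number. The labels give only the number, and this check cannot decide whether same-numbered libraries share a litter or batch. The main test was fitted without a block. With the replicate number as a block, Emcn in Dll4flox;Cdh5-CreERT2 lost its call, and no other call of a venous gene changed. Over all settings but omissions, calls among all genes ranged from 8 to 1108 in Jag1flox;Nfatc1-Cre (main 245), 24 to 885 in Dll4flox;Nfatc1-Cre (311), 4 to 791 in Dll4flox;Cdh5-CreERT2 (160), 0 to 37 in Dll4GOF;Tie2-Cre (0) and 0 to 25 in Efnb2flox;Nfatc1-Cre (4). Depth limits Nt5e most, at 74 reads in its lowest library.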
